A study of Mus musculus with 14 samples.

Results

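As C2C12 myoblasts, a mouse muscle cell line of C3H background, fuse into myotubes, new binding sites of the co-repressor scaffolds Sin3A and Sin3B are listed. Here 273 genomic regions held a binding peak of both Sin3A and Sin3B in myotubes and no peak of either protein in myoblasts. They were chosen by the presence or absence of peaks alone, after merging all peaks that overlapped by at least 1 bp over 4 peak lists, 1 for each protein at each stage, and made up 273 of 5137 merged regions (5.31%). The peaks came from chromatin immunoprecipitation and sequencing of 2 Sin3A and 2 Sin3B samples of myoblasts grown in 10% fetal bovine serum, and of 2 Sin3A and 5 Sin3B samples of myotubes formed at confluence in 2% horse serum, from which undifferentiated cells had been separated by diluted trypsin. The files of each group were identical, so every group counts as 1 list, and replicates have no measurable spread. No group carried a genetic change. By the labels, both proteins were precipitated with antibodies of a single catalogue number, with 2 lots for Sin3A in myoblasts, 1 of them also used for Sin3A in myotubes, and 1 lot of its own for Sin3B. How far the antibodies tell the proteins apart was not tested, which bears on every region where both were listed.

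Sin3A and Sin3B are large scaffold proteins that hold histone deacetylases HDAC1 and HDAC2 and partner subunits in co-repressor complexes. They do not read DNA sequence themselves but are brought to promoters by factors such as the MXD partners of MAX, REST and E2F-family repressor complexes. In muscle, Sin3 complexes are known for silencing cell cycle genes as myoblasts leave the cycle, and a form of the Sin3B complex has also been described at transcribed genes.

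Since peaks chose these regions, their pattern over the 4 lists is a description and no test was made of it. A deposited peak is an interval without height, score or p-value, and the read depth is unknown, so a region without a myoblast peak may still have held the protein. Regions of 1 list are not replicates of a condition. For this reason shares and medians are given with 95% intervals (exact binomial for shares, binomial order statistics for medians), which cover counting error only, and no test between region classes was made.

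The 273 regions took 275 of the 759 Sin3A peaks of myotubes (36.2%, interval 32.8 to 39.8%) and 280 of the 3769 Sin3B peaks of myotubes (7.43%, 6.61 to 8.31%). A total of 264 regions held 1 peak of each protein, 7 held 1 Sin3A and 2 Sin3B peaks, and 2 held 2 Sin3A peaks and 1 Sin3B peak. Where a protein had more than 1 peak in a region, the widest was used. Over all 611 regions with both proteins in myotubes, these were the 44.7% (40.7 to 48.7%) that had no myoblast peak.

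Genes could be named for a small part of the regions. No header or label names the genome build of the peaks, and most chromosomes did not match the gene starts of the RefSeq table at hand (GRCm38.p6). On 13 stretches of 10 Mb, however, 282 of 386 peaks (73.1%) of the 4 lists lay within 1 kb of a gene start of that table, against 390 of 6924 peaks (5.63%) on the other stretches with at least 10 peaks. Gene names were used on these 13 stretches only, which lie on chromosomes 5, 7, 8, 13, 16 and 19. They held 15 of the 273 regions, so what follows on genes describes 15 regions and not the whole set. Part of a stretch may still be shifted against the table, as on chromosome 19, where 72 of 122 peaks lay at a start. The weakest stretch was that of chromosome 7, with 7 of 14 peaks at a start, and the region assigned to Fiz1 below lies there.

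At these 15 regions, 13 (86.7%, 59.5 to 98.3%) had a gene start within 1 kb, against 72.0% of all 261 merged regions on the same stretches. The stretches were chosen for having 50% or more of their peaks, those of the set included, near a start, so a high share is in part fixed by that choice. The share was 11 of 14 (78.6%, 49.2 to 95.3%) for regions with Sin3B at both stages and Sin3A in myotubes only, and 81 of 108 (75%, 65.7 to 82.8%) for regions with Sin3B in myotubes alone, so the intervals of these classes overlap widely. The 13 regions lay at 18 genes, 5 of the regions at more than 1 gene, and in 10 of the 13 a start lay inside the merged region itself.

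The 18 genes are given here by what they are known to do. Of the translation machinery there were Eif4a2, an RNA helicase of translation initiation, Gspt1, the release factor eRF3a that ends translation, and N6amt1, a methyltransferase whose known substrates include the partner release factor eRF1. Of mitochondrial, metabolic and membrane functions there were Timmdc1, an assembly factor of respiratory complex I, Nubp1, a scaffold of cytosolic iron-sulphur cluster assembly, Atp6v1a, the catalytic subunit of the vacuolar proton pump, and Slc35a5, of a family of nucleotide sugar transporters. Of protein turnover and modification there were Atg3, the enzyme that joins LC3 to lipid in autophagy, Naa50, an N-terminal acetyltransferase, Dpp3, a dipeptidyl peptidase, and Dzip3 and Ankib1, both ubiquitin ligases. The rest were Cip2a, an inhibitor of the phosphatase PP2A, Krit1, a scaffold protein of endothelial junctions, Snapc2, a subunit of the complex that starts small nuclear RNA genes, Fiz1, a zinc finger protein that binds the receptor FLT3, 1810013L24Rik and LOC115488671.

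The sequences before the starts of some of these genes are shown, since 250 bases upstream were the part of each locus at hand next to the peaks. They are RefSeq sequences of GRCm38.p6, found by gene symbol (all 18 matched), and are printed 5′ to 3′ on the strand of the gene up to the base before its start. Capitals mark matches on either strand to the 11 motifs searched. The first belongs to the region of the set with the highest mean width rank of its peaks. The other 4 show the ETS, GC, NRF1 and CCAAT motifs found before the starts of the 18 genes. Most of the printed bases lie outside the regions. At 1810013L24Rik and Gspt1 the region begins 33 and 222 bp after the start. At Timmdc1, Eif4a2 and Nubp1 the region begins 146, 24 and 1 bp before the start.
1810013L24Rik: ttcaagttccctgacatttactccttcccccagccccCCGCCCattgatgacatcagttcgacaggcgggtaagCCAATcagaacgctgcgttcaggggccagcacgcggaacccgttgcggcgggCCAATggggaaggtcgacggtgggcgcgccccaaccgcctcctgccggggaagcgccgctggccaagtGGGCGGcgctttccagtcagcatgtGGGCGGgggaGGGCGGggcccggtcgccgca
Timmdc1: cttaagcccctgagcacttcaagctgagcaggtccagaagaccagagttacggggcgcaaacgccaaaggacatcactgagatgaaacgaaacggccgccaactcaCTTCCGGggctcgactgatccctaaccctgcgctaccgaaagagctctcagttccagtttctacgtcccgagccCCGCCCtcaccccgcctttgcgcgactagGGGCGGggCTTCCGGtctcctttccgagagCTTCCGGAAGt
Gspt1: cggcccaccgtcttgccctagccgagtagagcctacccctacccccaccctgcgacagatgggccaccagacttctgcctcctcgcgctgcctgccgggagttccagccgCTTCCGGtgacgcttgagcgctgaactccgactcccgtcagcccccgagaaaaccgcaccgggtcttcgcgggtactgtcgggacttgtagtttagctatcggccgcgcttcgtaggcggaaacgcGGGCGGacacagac
Eif4a2: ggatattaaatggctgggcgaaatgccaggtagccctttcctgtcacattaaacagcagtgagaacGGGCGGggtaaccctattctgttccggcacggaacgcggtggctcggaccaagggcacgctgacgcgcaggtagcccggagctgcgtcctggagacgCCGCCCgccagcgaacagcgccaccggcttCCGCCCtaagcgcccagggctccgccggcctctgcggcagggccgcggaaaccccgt
Nubp1: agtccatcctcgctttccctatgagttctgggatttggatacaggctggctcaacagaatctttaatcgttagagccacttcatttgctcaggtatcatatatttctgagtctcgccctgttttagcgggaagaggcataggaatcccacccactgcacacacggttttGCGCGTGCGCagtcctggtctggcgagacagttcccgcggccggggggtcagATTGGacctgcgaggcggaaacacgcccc

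These 5 sequences are chr16:8829850-8830099 (plus strand), chr16:38522664-38522913 (minus strand), chr16:11254326-11254575 (minus strand), chr16:23107218-23107467 (plus strand) and chr16:10411688-10411937 (plus strand), in the same order. In 1810013L24Rik the capitals are 4 GC boxes and 2 CCAAT boxes. Timmdc1 held 4 ETS cores and 2 GC boxes, and its last 2 ETS cores overlap as a palindrome that begins 11 bases before the start. Gspt1 held an ETS core and a GC box, Eif4a2 held 3 GC boxes, and Nubp1 held an NRF1 site and a CCAAT box.

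At 4 of the 13 regions the genes assigned include a pair transcribed away from each other. For the 3 pairs whose starts lie under 250 bases apart, the bases between the starts are printed on the plus strand, to show how close the starts lie. The starts of Atp6v1a and Naa50, the other pair, lie farther apart.
Slc35a5-Atg3 (between the starts): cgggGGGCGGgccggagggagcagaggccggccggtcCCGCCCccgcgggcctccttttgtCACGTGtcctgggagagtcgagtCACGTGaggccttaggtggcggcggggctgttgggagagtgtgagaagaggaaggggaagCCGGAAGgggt
Dzip3-Cip2a (between the starts): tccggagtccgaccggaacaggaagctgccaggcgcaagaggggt
Ankib1-Krit1 (between the starts): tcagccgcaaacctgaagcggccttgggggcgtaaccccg

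The first of these stretches is chr16:45158674-45158828 and has 155 bases with 2 GC boxes, 2 E boxes of the CACGTG form and an ETS core. The stretch of Dzip3 and Cip2a, chr16:48994143-48994187, has 45 bases, and that of Ankib1 and Krit1, chr5:3803125-3803164, has 40, and neither holds a whole match to any of the motifs searched. For genes with several annotated starts, the pair of starts that lay closest was taken.

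Motif counts were set beside 2 backgrounds, all 32851 promoters of the table and the 217 genes with a start within 1 kb of any Sin3 region on the same stretches, each over 250 bases before the start. Regions are counted by their genes, and a match may lie outside the region, as the ETS core of Gspt1 does. A gene was counted if any of its starts matched, whereas the share of all promoters counts each start, so the 217 genes are the closer background. The ETS core CCGGAAG, bound by factors such as GABP, was found at 8 of the 18 genes (5 of the 13 regions, since both genes of a divergent pair share sequence), against 6.91% of all promoters and 24.0% of the 217 genes. The GC box GGGCGG of Sp and KLF factors was found at 11 of the 18 genes (61.1%), against 32.7% of all promoters and 61.3% of the 217. The NRF1 site was found at 3 genes (3.74% of all promoters, 12.4% of the 217) and the CCAAT box of NF-Y at 4 (33.8% and 41.5%). The E box CACGTG of MYC, MAX and MXD factors was found at 3 genes (6.02% and 11.5%). Of these, Atg3 and Slc35a5 share the same 2 sites, so it was counted for the genes of 2 of the 13 regions. The 2 shared sites lie inside their region. The site of the third gene, Atp6v1a, begins 131 bp before its start and lies outside the region. Of the motifs of muscle factors, the E box CAGCTG of MyoD and myogenin was found at 3 genes. Its shares were 13.0% of all promoters and 13.8% of the 217. The MEF2 pattern searched allowed any base at its middle positions and matched at 1 gene, Krit1 (3.20% and 3.23%). The middle of the Krit1 match holds a G and a C. A form limited to A and T there was not searched, so these shares count a looser pattern than a MEF2 site. YY1 (AAGATGGCG) matched at 1 gene, Fiz1 (0.606% and 4.61%). CRE (TGACGTCA; 1.55% and 5.99%) and the E2F forms TTTCGCGC (0.256% and 1.38%) and TTTGGCGC (0.417% and 1.38%) matched at none, which says only that these letters are not in these windows.

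These promoters were rich in CpG, as were those of other Sin3 regions. The ratio of observed to expected CpG was above 0.6 at 20 of the 24 starts of the 18 genes (83.3%), at 84.6% of the 259 starts near any Sin3 region of the same stretches, and at 34.0% of all promoters. Their median GC content was 64.4%, against 61.2% and 52.4%. The starts outside the CpG-rich group included that of N6amt1, with 36.4% GC and a ratio of 0.484.

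**Figure D1:**
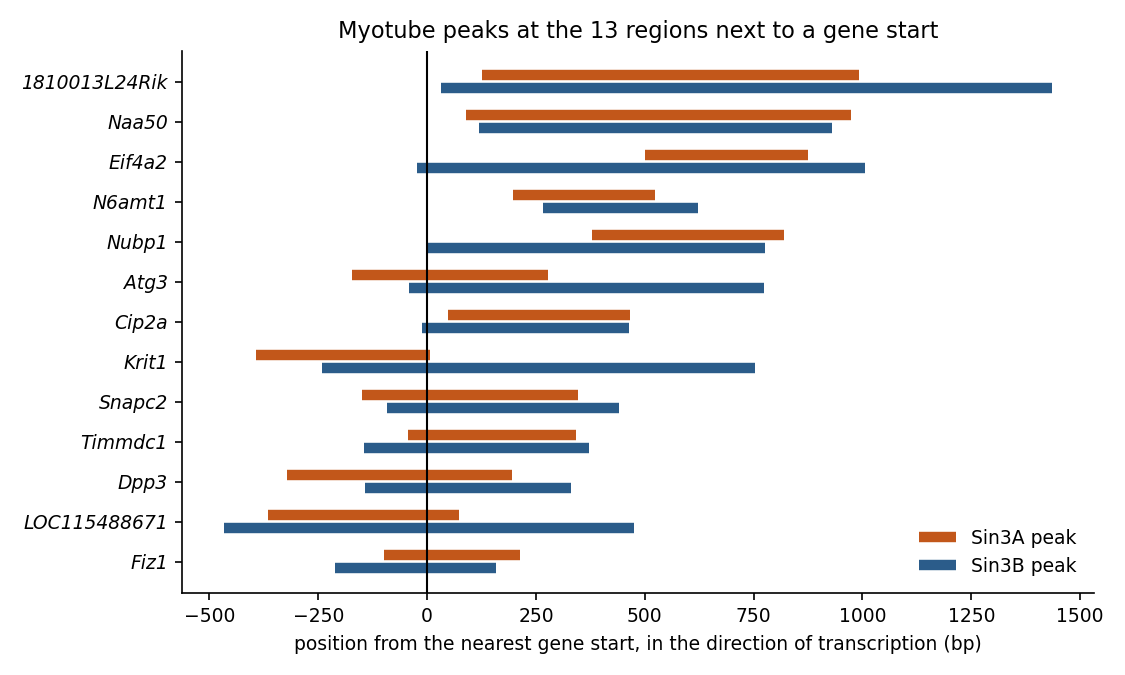
Extent of the Sin3A (orange) and Sin3B (blue) myotube peaks at the 13 regions next to a gene start, in bp from the nearest start in the direction of transcription, 1 gene per row. Peaks begin between 467 bp before the start (Sin3B at LOC115488671) and 500 bp after it (Sin3A at Eif4a2). All end past the start, the Sin3A peak at Krit1 by only 7 bp, and at 1810013L24Rik, Naa50 and N6amt1 both peaks begin past it.

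At all 13 regions (100%, 75.3 to 100%) the centre of the merged region lay on the transcribed side of the nearest start, by a median of 227.5 bp (4.5 to 490.5 bp). At Fiz1, Dpp3 and LOC115488671 it did so by only 1, 4.5 and 4.5 bp, so these regions were nearly centred on the start. Among regions near a start with Sin3B in myotubes alone, the centre lay on that side at 62 of 81 (76.5%, 65.8 to 85.2%). The same held for 141 of all 188 regions near a start on these stretches (75%, 68.2 to 81.0%), with a median of 147.5 bp (97 to 201.5 bp). For genes on the plus strand that median was 178.5 bp (97 to 245.5 bp) and for genes on the minus strand 113 bp (38.5 to 201.5 bp). Whether part of these distances comes from a shift between the files' coordinates and the table was not tested. At a divergent pair, the nearest start is by construction one whose gene runs towards the centre unless the centre lies between the starts, and this concerns the 4 regions at such pairs, that of Naa50 and Atp6v1a included. The Sin3B centre alone lay downstream at 12 of 13 regions (median 255.5 bp, 94 to 490.5 bp) and the Sin3A centre at 10 of 13 (median 149.5 bp, -63.5 to 560 bp).

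Away from the 3 close pairs, the peaks reached farthest into 1810013L24Rik, where a Sin3A peak of 867 bp was centred 560 bp after the start and a Sin3B peak of 1404 bp was centred 734.5 bp after it. At Naa50 the peaks of 884 bp (Sin3A) and 814 bp (Sin3B) had centres only 7 bp apart, 531.5 and 524.5 bp after the nearer of its starts, and the start of Atp6v1a lay on the other side, 1081.5 bp from the centre of the region. Both genes thus had the peaks within 1 kb of a start, and the peaks lay over Naa50.

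At Eif4a2 a narrow Sin3A peak of 375 bp, centred 687 bp after the start, lay inside a Sin3B peak of 1030 bp that began 24 bp before the start. At Nubp1 the Sin3A peak of 442 bp was centred 599.5 bp after the start and the Sin3B peak of 779 bp 388 bp after it. At N6amt1 both peaks lay past the start, with widths of 327 and 356 bp and centres at 361 and 444.5 bp. In these 3 genes no base of the Sin3A peak lay before the start.

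The 3 close pairs differed in how the peaks lay. At Ankib1 and Krit1 the Sin3A peak of 400 bp was centred -192.5 bp from the nearest Krit1 start, over the Ankib1 side, and the Sin3B peak of 994 bp 255.5 bp after it, so the centres were 448 bp apart. At Slc35a5 and Atg3 the Sin3A peak of 452 bp was centred 52.5 bp after the Atg3 start and the Sin3B peak of 816 bp 365.5 bp after it. At Dzip3 and Cip2a both peaks (421 and 477 bp) lay over Cip2a, centred 257 and 226 bp after its start.

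The remaining 5 regions reached over a start on both sides. At Timmdc1 the Sin3A and Sin3B peaks of 388 and 519 bp were centred 149.5 and 113 bp after the start, and at Snapc2 peaks of 497 and 533 bp were centred 98 and 174 bp after it. The region at Gspt1 (Sin3A 441 bp, Sin3B 944 bp) had its centre 693.5 bp into the gene and 4.5 bp from the start of LOC115488671. At Dpp3 the peaks of 516 and 473 bp were centred at -63.5 and 94 bp, and at Fiz1 the peaks of 314 and 372 bp at 57.5 and -26.5 bp. The last 2 of the 15 regions spanned 33.3 kb on chromosome 19 (chr19:7016008-7016834 and chr19:7048901-7049351, in the files' build) and had no start within 1 kb. In their Mb only 1 of 13 peaks of the 4 lists lay at a start, so the table may be shifted there and no gene was assigned.

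Genes of 6 lists of pathways known for Sin3 or muscle (sarcomere and calcium handling, cell cycle and DNA replication, Sin3-HDAC complex and partners, myogenic regulators and muscle membrane, respiratory chain and ATP synthase, cytoplasmic ribosomal proteins) were looked for at the same stretches. Only 19 genes of these lists have a start there, none of them a myogenic regulator. Of the 19, 8 lay within 1 kb of a Sin3 region of some pattern, namely the replication genes Cdc45, Pola2 and Rfc4, the chromatin reader gene Ing1, the respiratory genes Atp5j, Ndufs8 and Ndufv1, and Rpl35a, and 0 lay at a region of both proteins in myotubes only. Over all 1304 genes with a start on these stretches, 18 (1.38%) did, so with 19 genes a count of 0 is near that background. A Sin3 region of some pattern lay at 217 of the 1304 (16.6%), which is the share to set beside the 8 of 19; that difference was not tested.

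The regions themselves were compact. The merged regions had a median width of 691 bp (664 to 717 bp) and a range of 384 to 1804 bp. The Sin3A peaks had a median width of 458 bp (444 to 482 bp; range 213 to 1049 bp), and the Sin3B peaks one of 599 bp (565 to 623 bp; range 171 to 1803 bp). Within the full lists the median width percentile of these peaks was 45.7 for Sin3A and 59.1 for Sin3B, where 50 is the middle of a list.

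Widths were set beside those of the region classes most like them. Regions with Sin3B at both stages joined by Sin3A in myotubes (220 regions) had wider myotube peaks, with medians of 498 bp (474 to 512 bp) for Sin3A and 753 bp (701 to 813 bp) for Sin3B, and the 84 regions with both proteins at both stages had medians of 551 bp (520 to 602 bp) and 732 bp (663 to 839 bp). Regions listed with a single protein, and in myotubes only, had narrower peaks, at 407 bp (373 to 435 bp) over 111 Sin3A regions and 494 bp (485 to 503 bp) over 1953 Sin3B regions. The regions of both proteins in myotubes only thus stood between the single-protein regions and those already listed in myoblasts for Sin3B, and above the single-protein regions for Sin3A, where their interval overlapped that of the 220. The classes were set by which peaks overlap, and wider peaks have more room to overlap. These differences are therefore in part fixed by the rule, and they were not tested.

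**Figure D2:**
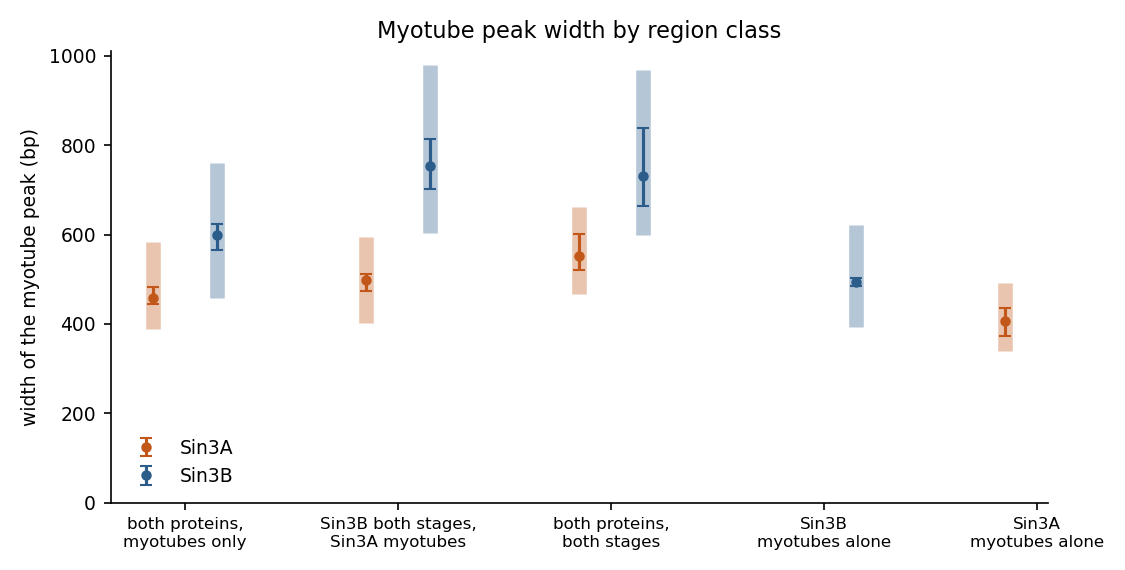
Width in bp of the myotube Sin3A (orange) and Sin3B (blue) peak in 5 classes of merged regions, with the median (point), its 95% interval (line) and the range from the 25th to the 75th percentile (shaded bar). Regions with both proteins in myotubes only have medians of 458 and 599 bp, between those of single-protein regions and those of regions that also held myoblast peaks.

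The share of regions without a myoblast peak was lower among wider peaks, most plainly by Sin3B width. Among the 611 regions with both proteins in myotubes, it was 65.2% (57.1 to 72.6%) where the Sin3B peak was 136 to 533 bp wide, 48.3% at 534 to 671 bp, 38.8% at 673 to 879 bp, and 26.1% (19.4 to 33.9%) at 881 to 1932 bp, in 4 classes of nearly equal size. In the same way by Sin3A width the shares were, from narrow to wide, 53.6% (45.4 to 61.7%), 50.3%, 35.8% and 38.8% (31.0 to 47.0%). The rule leaves out a region that overlaps a myoblast peak, and a wider peak has more room to do so. These shares are therefore in part fixed by the rule. Width is the only value per peak in these files, and whether it stands for signal strength was not tested.

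Both proteins lay close together within the regions. The centres of the Sin3A and Sin3B peaks were a median of 96 bp apart (83.5 to 108 bp), with a range of 0.5 to 764.5 bp, and 143 of 273 pairs (52.4%, 46.3 to 58.4%) were within 100 bp. The median was 93.75 bp (75.5 to 105.5 bp) where Sin3B was also listed in myoblasts and 68.25 bp (47 to 82 bp) where both proteins were listed at both stages. The rule asked for peaks in 1 merged region and so limits how far apart centres can be.

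The overlap had a median of 388 bp, or 92.1% of the Sin3A peak, with a range of 25 to 867 bp. The Sin3A centre fell inside the Sin3B peak in 250 regions (91.6%, 87.6 to 94.6%), against 93.3% of all 611 regions with both in myotubes. The Sin3B peak was the wider in 193 regions (70.7%, 64.9 to 76.0%), against a background of 77.7%, and in 85% (79.6 to 89.4%) of the 220 regions with lasting Sin3B. The Sin3A peak lay wholly inside the Sin3B peak in 101 regions (37.0%, 31.3 to 43.0%), against a background of 48.8% and 59.1% (52.3 to 65.7%) of the 220. The reverse, a Sin3B peak inside the Sin3A peak, was found in 30 regions (11.0%, 7.54 to 15.3%) and in 8 of the 220 (3.64%, 1.58 to 7.04%).

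Across the 273 regions the widths of the paired peaks were nearly unrelated, with a Spearman rho of 0.10 and a Pearson r of 0.09. These are descriptions over regions of the same 2 lists. The Sin3B peak was a median of 1.27 times as wide as the Sin3A peak (1.17 to 1.39), with single regions between 0.262 and 3.86.

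**Figure D3:**
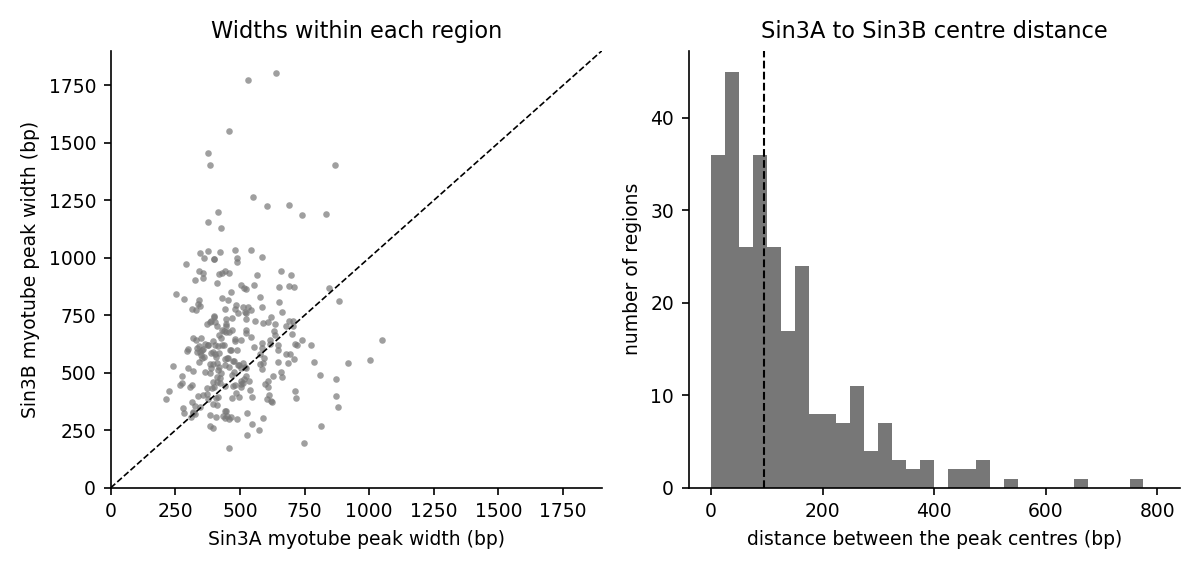
Left, width of the Sin3B against the Sin3A myotube peak in bp for each of the 273 regions, with the line of equal width (dashed); 193 points lie above it. Right, number of regions by distance between the Sin3A and Sin3B peak centres in bins of 25 bp, with the median of 96 bp (dashed).

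Ranked by the mean width percentile of both peaks, the first region was the one at 1810013L24Rik (chr16:8830133-8831536, in the files' own build, as are all positions of regions), and the one at Naa50 (chr16:44139899-44140782) ranked seventh. Both regions that came next to the first were on chromosome 5, at chr5:136409394-136410582 (Sin3A 831 bp, Sin3B 1189 bp, centres 18 bp apart) and at chr5:122951010-122952239 (741 and 1187 bp, 266 bp apart). The next were on chromosomes 13 and 17, at chr13:46822187-46823415 (690 and 1229 bp), chr13:30077257-30078345 (844 and 868 bp) and chr17:45709240-45711042 (638 and 1803 bp), the last with the widest Sin3B peak of the set. Ranks 8 to 10 were chr19:41969961-41970885 (698 and 925 bp), chr8:73222891-73223967 (709 and 873 bp) and chr11:51569206-51570083 (690 and 878 bp). Apart from those on chromosome 16, these lie outside the stretches where genes could be named.

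Myoblast peaks were mostly far away. The nearest myoblast peak of either protein lay a median of 85.4 kb from the region (73.1 to 117 kb), with the 25th and 75th percentiles at 36.6 and 275 kb. The same median was 104.145 kb for regions with Sin3B in myotubes alone and 97.988 kb for those with Sin3A in myotubes alone. The intervals of these medians overlap, so by this measure the set did not lie farther from myoblast peaks than these classes. A myoblast peak within 10 kb was found for 23 of 273 regions (8.42%, 5.42 to 12.4%), against 12.5% of all 2337 regions without a myoblast peak and 259 of the 1953 regions with Sin3B in myotubes alone (13.3%, 11.8 to 14.8%). Of these 23, 21 were near a Sin3B and 3 near a Sin3A myoblast peak, 1 of them near both. The myoblast lists held 2387 Sin3B and 691 Sin3A peaks, so these counts do not show a preference for Sin3B. The share within 10 kb moved with the merging rule, to 12.7% when overlap had to reach 50% of the shorter peak and to 3.69% when peaks within 1 kb were merged, and the shares of the other classes were not recomputed under these rules. Whether the set stands below the other classes is therefore not settled.

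Within 1 kb there were 12 regions (4.40%, 2.29 to 7.55%), 11 of them near a Sin3B myoblast peak and 1 near a Sin3A myoblast peak. The larger Sin3B myoblast list bears on this split too. For Sin3B in myotubes alone the share within 1 kb was 8.35% (7.16 to 9.66%). At these 12 regions the absence of a myoblast peak rests on a gap of 11 to 847 bp. Those with the shortest gaps are the ones a small change of peak borders would move out of the set.

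The regions nearest to that border show how thin it can be. Just inside it, chr1:55144288-55144709 (Sin3A 416 bp, Sin3B 393 bp) missed a myoblast peak by 11 bp, chr11:70795940-70796408 (434 and 312 bp) by 33 bp and chr6:91423564-91424292 (615 and 627 bp) by 44 bp. Just outside it, chr12:11272075-11273761 (990 and 1198 bp) was left out for an overlap of 34 bp, chr19:9973271-9974476 (717 and 614 bp) for 55 bp and chr2:157391706-157392572 (419 and 683 bp) for 83 bp. Such cases were few, since 4 of the 338 regions with both proteins in myotubes and a myoblast peak overlapped it by under 100 bp, and the median overlap was 514.5 bp.

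**Figure D4:**
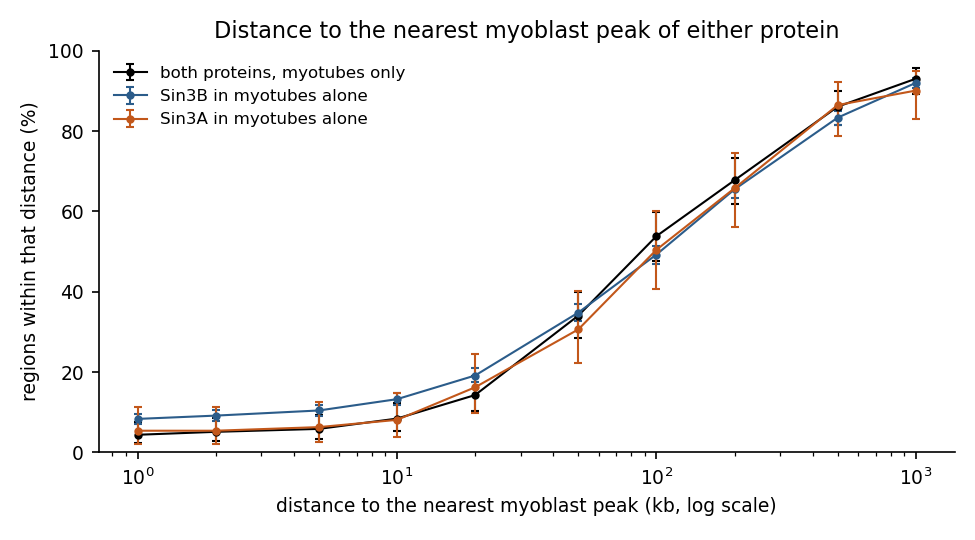
Share of regions (%, with 95% exact binomial intervals) that have a myoblast peak of either protein within the distance on the x axis (kb, log scale), for the 273 regions with both proteins in myotubes only (black), Sin3B in myotubes alone (blue) and Sin3A in myotubes alone (orange). The curves differ by a few percentage points, both at 10 kb (8.42%, 13.3% and 8.11%) and at 100 kb (53.8%, 49.3% and 50.5%). Their order changes between these distances.

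Most regions had no close neighbour. Another Sin3 region of any pattern lay within 10 kb of 50 regions (18.3%, 13.9 to 23.4%), against 24.6% of all merged regions and 27.3% (25.3 to 29.3%) of those with Sin3B in myotubes alone. The share was 15% (10.6 to 20.4%) for the 220 regions with lasting Sin3B and 14.3% (7.61 to 23.6%) for the 84 with both proteins at both stages, so these intervals overlap that of the set. Within 100 kb of each other the 273 regions formed 13 pairs and no larger group, and 247 stood alone. The median gap to the next region of the set was 1304 kb.

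The closest pair was on chromosome 1, where chr1:180266380-180266962 (Sin3A 537 bp, Sin3B 463 bp) and chr1:180267323-180267852 (242 and 530 bp) were 0.36 kb apart and 539878 and 540821 bp from the nearest myoblast peak. The next were pairs on chromosome 11 (chr11:6428156-6428842 and chr11:6446142-6446843), chromosome 10 (chr10:79611681-79612144 and chr10:79630594-79631049) and chromosome 12 (chr12:70297710-70298526 and chr12:70328736-70329285), followed by the pair on chromosome 19 named above. The pair on chromosome 10 lay among other Sin3 regions, with 6 regions in its 19.4 kb and a myoblast peak 349 bp from its first member. The stretches spanned by the other 4 pairs held no further Sin3 region.

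By chromosome, the set followed the merged regions fairly closely. Its share of all merged regions was 5.31% overall and ran from 1.85% on chromosome X (1 of 54) to 9.01% on chromosome 10 (29 of 322, 6.11 to 12.7%). Chromosome 10 was the one whose interval lay above the overall share, and chromosome 3, with 6 of 252 regions (2.38%, 0.879 to 5.11%), the one whose interval lay below it. Both were singled out of 20 chromosomes after their values were seen, and no test was made. Chromosome 11 held the most regions (32 of 485, 6.60%).

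Counted over the 611 regions with both proteins in myotubes, chromosome 10 was no longer apart, with 29 of 54 regions (53.7%, 39.6 to 67.4%) against 44.7% overall. On chromosome 15, 15 of 52 such regions (28.8%) were free of myoblast peaks, with an interval of 17.1 to 43.1%, and on chromosome 13 it was 7 of 26 (26.9%). Chromosomes 6 and 7 had the highest shares, each with 12 of 21 regions (57.1%).

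**Figure D5:**
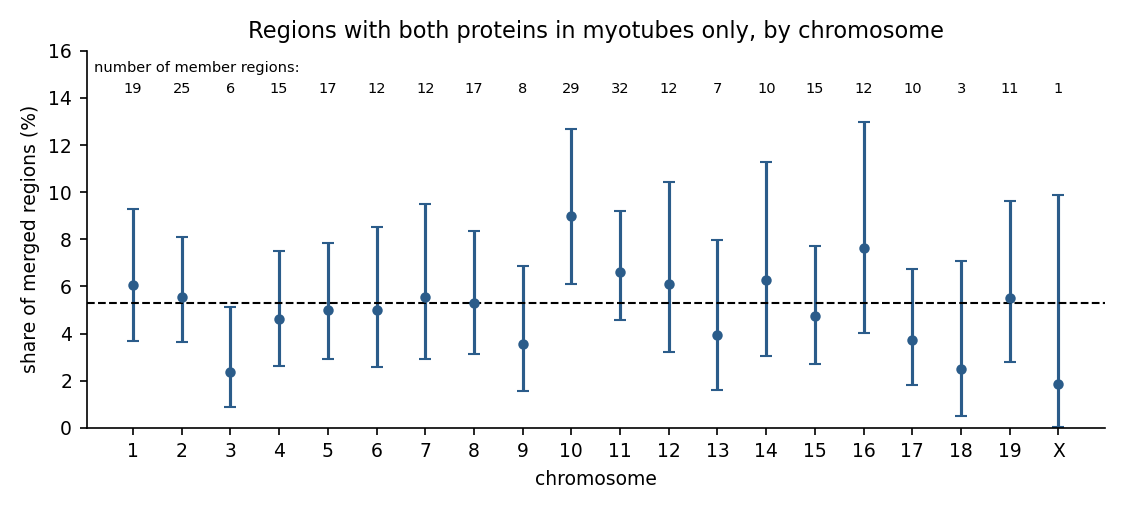
Regions with both proteins in myotubes only as a share of all merged regions of each chromosome (%, points) with 95% exact binomial intervals (lines), the overall share of 5.31% (dashed) and the number of such regions above. Chromosome 10 lies above and chromosome 3 below the dashed line with their whole interval.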

How the data were processed

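Per the labels, 11 immunoprecipitation samples (Sin3A or Sin3B, myoblasts or myotubes) and 3 input samples were made from C2C12 cells; libraries had 18 cycles of PCR. Input signal was not analysed here. The authors deposited peak lists of chromosome, start and end, without a header or score; for aligner, caller, threshold, build and use of input, nothing is stated in labels or headers. Files of a group were byte-identical and counted once, giving 7606 peaks in 4 lists. Depth is unknown.

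Peaks were merged at 1 bp of overlap, and starts were written counting from 1. The checks on simulated lists of known pattern gave the planted classes. Genes were named on 10 Mb windows with 10 or more peaks of which 50% or more lay within 1 kb of a RefSeq start (GRCm38.p6); no coordinates were converted. All genes within 1 kb of a region there were named, with the 10 regions of highest mean width rank and the 5 closest groups. Alternatives changed the overlap, merging distance, width minimum, chromosomes, start distance and window share. The regions, lists, motifs and comparisons were chosen with earlier results of these data known. Software was matplotlib 3.10.9, scipy 1.17.1, pandas 2.3.3 and numpy 2.4.6 under Python 3.11.15.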

Additional observations from a re-analysis of the deposited data

How the results depend on the processing

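Of 29 alternative values, 23 stayed within 1.5 times the reported count or inside the reported 95% interval. With the narrowest 25% of both myotube lists left out, the set shrank to 174 regions, with median widths of 511.5 bp for Sin3A and 643 bp for Sin3B, as leaving out narrow peaks raises both by construction. The share with a myoblast peak within 10 kb was 12.7% when overlap had to reach 50% of the shorter peak and 3.69% when peaks within 1 kb were merged, since these settings let in or remove regions next to myoblast peaks. With windows holding 70% or more of peaks at a start, 11 of 11 regions (100%) lay at a gene start, a share that choosing windows by this measure raises by construction. Leaving out chromosome X, or peaks under 50 bp (chosen after seeing the data), kept the 5 values recomputed within these bounds. Leaving out single replicates was not run, as the files of a group are identical. No paired analysis was possible because each group has 1 distinct list and no test was made. Unknown depth limits every statement on absent peaks.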
